A study of Mus musculus with 15 samples.

Results

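Glutamate and GABA carry most fast excitation and inhibition in the mammalian brain, and the genes for their receptors were followed across 4 mouse glioma models and naïve brain. The members were the protein-coding genes whose mouse symbols belong to the Gria, Grin, Grik, Grid, Grm, Gabr and Gabbr families, and 47 of the 46679 genes in the files met that rule, of which 26 encode glutamate receptors and 21 encode GABA receptors. RNA came from C57BL/6 mice, with 3 mice in each of 5 groups. Naïve brain came from mice without a tumor, and neither the brain region nor the age of these mice was given in the sources used here. CT2A and GL261 (mutant K-ras and p53) are lines from tumors induced with methylcholanthrene and were grown in serum. 005 (H-ras and AKT, p53 heterozygous) and Mut3 (Nf1 and p53 inactivated) came from genetically engineered mice and were grown in neurobasal medium with EGF and FGF-2. The lines carried a GFP and firefly luciferase reporter, and 100000 cells (500000 for Mut3) were implanted into the right hemisphere of mice that were 6 to 8 weeks old. The tumors were taken at the humane endpoint after perfusion, and each model is a single line, so a difference between models is a difference between lines. The study treats GL261 and 005 as immunologically active and CT2A and Mut3 as inert.

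AMPA, NMDA, kainate and delta receptors are tetrameric glutamate receptors, of which the first 3 kinds are glutamate-gated cation channels. Metabotropic glutamate (mGlu) receptors signal through G proteins, with group I coupled to phospholipase C and groups II and III inhibiting adenylyl cyclase. GABA-A receptors are pentameric chloride channels, usually with alpha, beta and gamma or delta subunits, and the GABA-B receptor is an obligate pair of G protein-coupled subunits. Neurons hold most of these receptors in adult brain, although astrocytes and oligodendrocyte precursors also carry some of them. In bulk tissue such as this, fewer cells of a type and less RNA per cell cannot be told apart.

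The libraries held between 3105119 and 13130158 counts, and naïve brain had the 3 smallest totals. The pan-neuronal panel (Rbfox3, Snap25, Syt1, Nefl, Nefm, Stmn2, Slc12a5 and Syn1) summed to 1616, 1459 and 1576 TPM in naïve brain, 209, 47.1 and 43.9 in CT2A, 137, 320.4 and 194 in GL261, 107, 44.1 and 1046 in 005 and 8.81, 31.6 and 21.5 in Mut3. The third 005 library stood apart from the other tumor libraries, since its panel sum was nearest to naïve brain and its mitochondrial share of 17.8% lay within the naïve range of 14.97% to 24.0%, against 3.48% to 11.3% in the other tumors. Proliferation genes summed to 35.6 TPM in that library and to 120.1 TPM or more in every other tumor library. The main results on 005 are therefore given with and without it. Fits scaled to the pan-neuronal panel and the test among the 5 groups include it throughout. Markers of cerebellum were low in naïve brain (14.1 to 30.6 TPM for 5 genes), and the second naïve library held more of the striatal markers (174 TPM, against 24.7 and 41.0 TPM) and of the oligodendrocyte markers (937 TPM, against 240.3 and 193 TPM) than the other two.

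**Figure D1:**
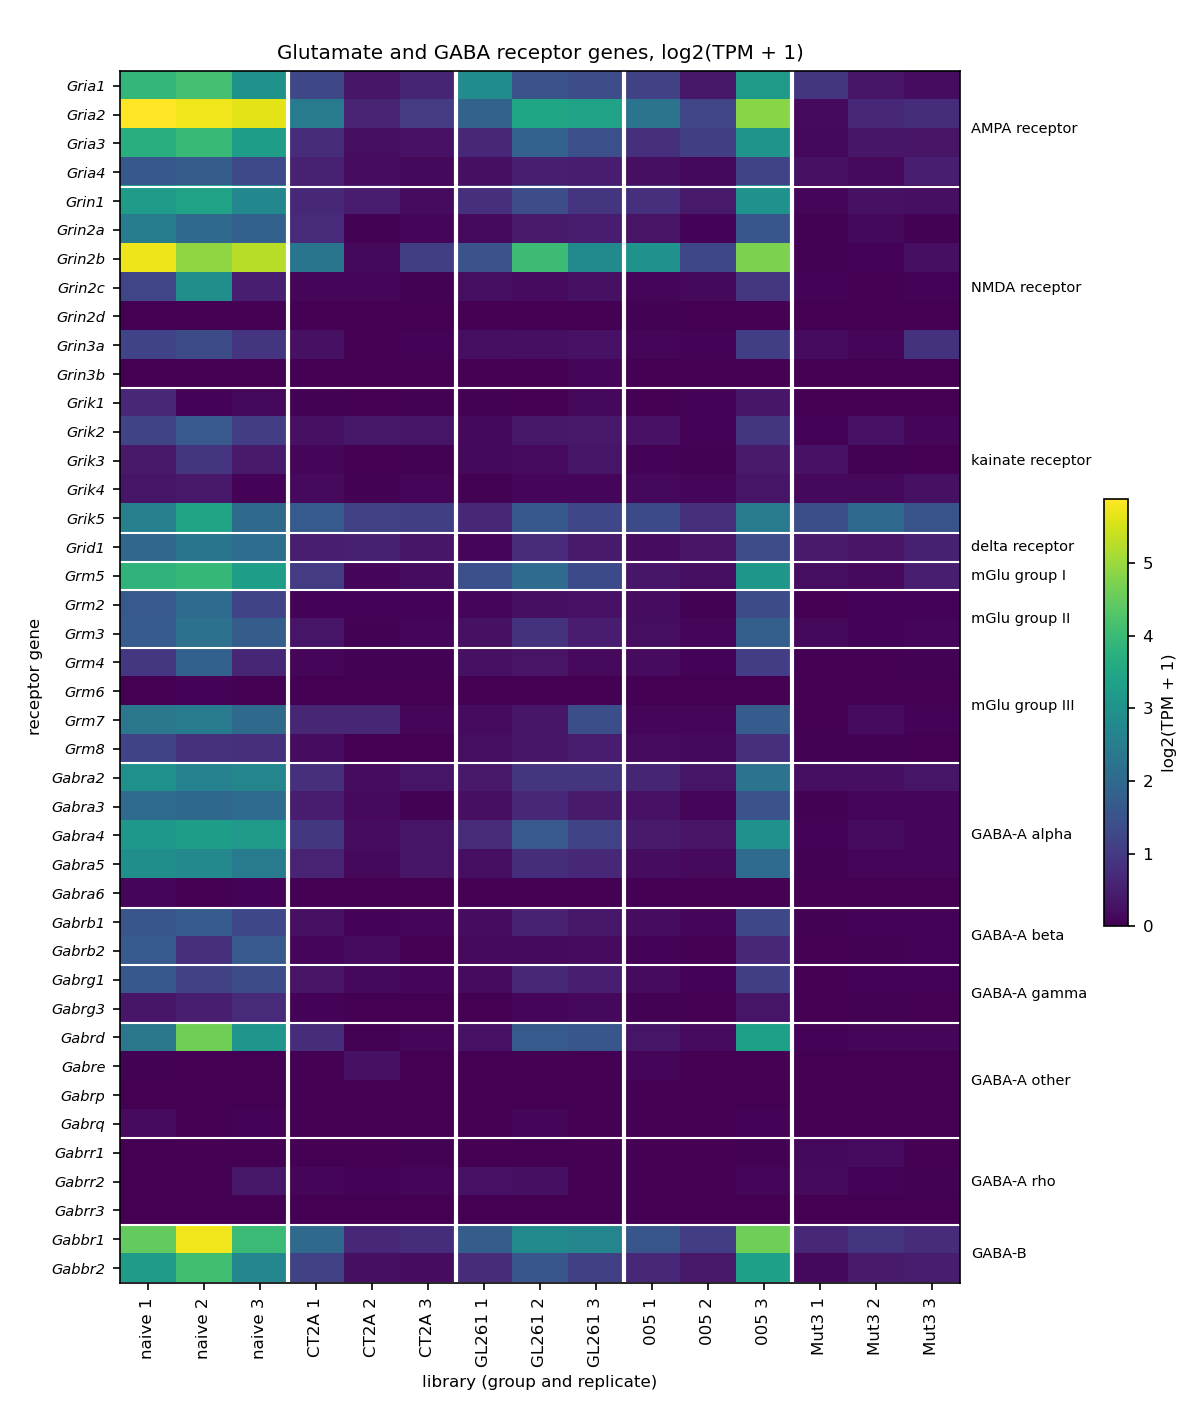
Heat map of 42 of the receptor genes (rows, grouped by receptor class) in the 15 libraries (columns), colored by log2(TPM + 1). The naïve columns and the third 005 library are brightest, and the Mut3 columns are dark in nearly all rows, with Grik5 among the exceptions.

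Receptor genes were mostly lower in tumor than in naïve brain, and none was called higher. The summed level of all 47 genes was 283, 340.0 and 220.4 TPM in naïve brain, 29.1, 6.80 and 8.03 in CT2A, 23.9, 62.5 and 44.2 in GL261, 23.9, 9.53 and 189 in 005 and 5.74, 8.09 and 8.13 in Mut3. All tumor libraries lay below all naïve libraries, and the third 005 library came closest to them. A gene was called at a Benjamini-Hochberg adjusted p below 0.05 and a log2 fold change of at least 1 in size, in edgeR's quasi-likelihood test over 17481 genes, and 36 of the 47 members passed the filter on low counts. CT2A had 30 members called lower, where 20.2% of all genes were lower and 19% were higher. GL261 had 7 lower, where 7.77% of all genes were lower and 14.6% higher. 005 had 0 lower, where 1.05% of all genes were lower and 11.6% higher. At an unadjusted p below 0.05, 11 members differed in 005, and DESeq2 called 7. Mut3 had 32 lower, where 19.8% of all genes were lower and 17.9% higher. The median log2 fold change of the tested members was −4.998 in Mut3, −3.34 in CT2A, −1.95 in GL261 and −1.57 in 005, whereas the median over all tested genes lay between −0.08 and 0.11. Without the third 005 library, 34 of 37 members were lower in 005, where 18.1% of all genes were lower and 17.6% higher, and the median was −3.54. The GL261 count was 20 with DESeq2, and it was 0 to 3 when any single naïve or GL261 library was left out, with 0 without the first or the third GL261 library. The CT2A count fell to 12 and 14 without the second and the third CT2A library. Shares of all genes are not given for the DESeq2 counts, the unadjusted count or the fits without a CT2A, GL261 or naïve library. Those counts are values only. Of the 36 tested members, 32 differed among the 5 groups at an adjusted p below 0.05, against 52.1% of all genes, and Grin3a, Grik3, Grik4 and Grik5 did not.

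The pan-neuronal panel moved with the receptor genes. All 8 panel genes were called lower in CT2A and in Mut3, and none in GL261 or 005, while all 8 were lower in 005 without the third library. The receptor sum was 13.99% to 23.3% of the panel sum in naïve brain, 18.0% to 22.3% in 005, 17.4% to 22.8% in GL261 and 13.9% to 18.3% in CT2A. The ranges of these 4 groups overlapped, while Mut3 lay above them at 25.6% to 65.2%. Departures from the panel were sought by repeating the fit with libraries scaled to equal panel counts. This choice was made after seeing the data. On that scale 27 of 36 members in Mut3, 32 in CT2A, 36 in GL261 and 35 in 005 were called neither higher nor lower, and the median log2 differences were 0.69, 0.02, 0.22 and 0.30. Among all genes, 77.1%, 33.7%, 74.5% and 90.6% were then called higher in CT2A, GL261, 005 and Mut3, and 0.114%, 0.0686%, 0.0686% and 0.0458% lower, so the members called higher on this scale (4, 0, 1 and 8 of 36) were fewer than that share and are given as values only. Calls on this scale included the kainate subunits Grik2, Grik3, Grik4 and Grik5, and they are described with their classes. The panel held between 406 and 1404 counts in the Mut3 libraries, which limits the precision of this scale there. The SEs of the members on this scale were 0.88 to 1.30 log2 units over the 4 tumors. Grik5 in 005 (log2 1.82 ± 0.97) and Gabra2 in Mut3 (log2 1.86 ± 0.92) were not called, so an uncalled member was not shown to follow the panel.

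**Figure D2:**
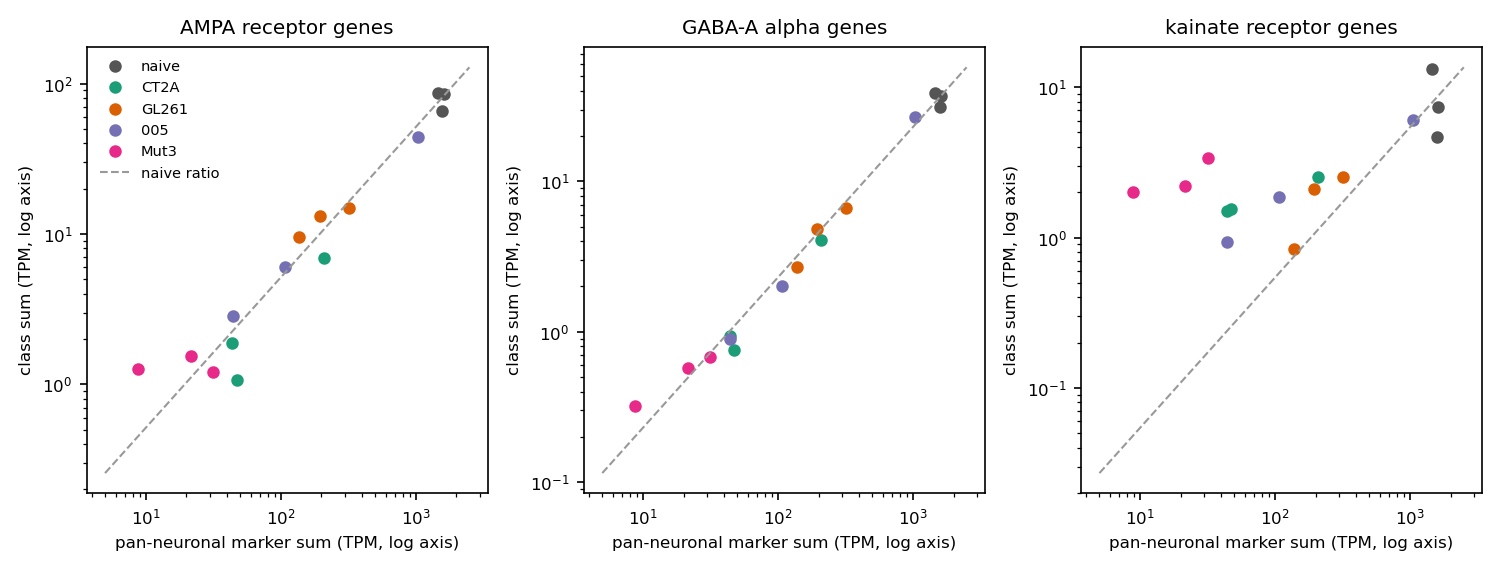
Summed TPM of 3 receptor classes (vertical log axes) against the summed TPM of the 8 pan-neuronal markers (horizontal log axes), with 1 point per library colored by group and a dashed line at the ratio of the naïve means. AMPA and GABA-A alpha points lie near the line, with the AMPA point of the first Mut3 library above it, whereas the kainate points of all 12 tumor libraries lie above it, farthest in Mut3.

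AMPA receptors carry most fast excitatory transmission, and Gria2 encodes the subunit that limits their calcium permeability. Gria2 measured 58.0, 53.1 and 48.7 TPM in naïve brain, 4.39, 0.498 and 1.04 in CT2A, 2.67, 10.1 and 9.48 in GL261, 3.84, 1.34 and 27.4 in 005 and 0.108, 0.573 and 0.716 in Mut3. All tumor libraries were below naïve brain, and the Mut3 libraries were at 0.716 TPM or less. Gria2 was 15.1-fold lower in CT2A (log2 fold change −3.91 ± 0.95, adjusted p = 0.00622) and 65.8-fold lower in Mut3 (log2 fold change −6.04 ± 1.06, adjusted p = 0.000887), and it was not called in GL261 (log2 fold change −2.13 ± 0.88, adjusted p = 0.0881) and 005 (log2 fold change −2.05 ± 0.88, adjusted p = 0.131), all in edgeR's quasi-likelihood test with Benjamini-Hochberg adjustment, as are the values below. Gria3 was at 11.95, 14.9 and 8.80 TPM in naïve brain, 0.676, 0.163 and 0.223 in CT2A, 0.593, 2.59 and 1.72 in GL261, 0.720, 1.12 and 7.25 in 005 and 0.0909, 0.274 and 0.249 in Mut3. Gria3, another AMPA subunit, did not overlap naïve brain in any tumor, and it was called lower in CT2A, GL261 and Mut3 (log2 fold changes −4.13, −2.08 and −5.02). Gria1 had 13.8, 16.4 and 7.15 TPM in naïve brain, 1.41, 0.269 and 0.526 in CT2A, 6.10, 1.84 and 1.62 in GL261, 1.25, 0.309 and 7.98 in 005 and 0.848, 0.255 and 0.153 in Mut3. Gria1, the subunit best known for activity-dependent insertion at synapses, was called lower in CT2A (log2 −3.13) and Mut3 (log2 −4.02). By TPM it was highest among tumors in the third 005 library, which lay within the naïve range, followed by the first GL261 library (782 counts). By CPM with TMM scaling the order was reversed. The first GL261 library (162 CPM) then lay within the naïve range of 111 to 186 CPM. The third 005 library (109 CPM) lay just below that range. Gria4 stood at 2.06, 2.33 and 1.47 TPM in naïve brain, 0.451, 0.138 and 0.0979 in CT2A, 0.176, 0.406 and 0.358 in GL261, 0.184, 0.0891 and 1.31 in 005 and 0.209, 0.111 and 0.413 in Mut3. Gria4 was lower in CT2A (log2 −2.17) and Mut3 (log2 −2.14). Scaled to the pan-neuronal panel, Gria4 was 13.7-fold higher in Mut3 than in naïve brain (log2 3.78 ± 1.02 (SE), adjusted p = 0.000784) and Gria1 was 5.34-fold higher (log2 2.42 ± 1.07, adjusted p = 0.0322), both by edgeR. The excess of Gria1 rested on 1 library, since its level relative to the panel was 3.57 log2 units above the naïve mean in the first Mut3 library, while the third lay at −0.19 and the second near 0.

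The make-up of the AMPA class varied with these genes. Gria2 held 61.3% to 73.7% of the AMPA TPM in naïve brain, and it was the leading subunit in 10 of 12 tumor libraries. The exceptions were the first GL261 library, where Gria1 held 64.0% and Gria2 28.0%, and the first Mut3 library, where Gria1 held 67.5% and Gria2 8.57%. Gria4 held 2.22% to 2.69% in naïve brain and 16.6%, 9.19% and 27.0% in the Mut3 libraries. These shares are given as descriptions and were not tested.

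NMDA receptors need 2 agonists and pass calcium, and Grin1 encodes their obligatory subunit. Grin1 measured 8.45, 9.56 and 5.69 TPM in naïve brain, 0.595, 0.372 and 0.134 in CT2A, 0.739, 1.62 and 0.887 in GL261, 0.770, 0.337 and 6.93 in 005 and 0.0763, 0.210 and 0.175 in Mut3. Grin1 was lower in CT2A (log2 −3.49) and Mut3 (log2 −4.81), and both groups lay below naïve brain. Grin2b was at 51.9, 28.9 and 37.3 TPM in naïve brain, 3.87, 0.0909 and 1.13 in CT2A, 1.84, 15.5 and 5.88 in GL261, 7.14, 1.41 and 25.3 in 005 and 0.0289, 0.0373 and 0.186 in Mut3. Grin2b, a glutamate-binding subunit that is prominent in forebrain, varied widely within the tumors, and 2 of the 3 Mut3 libraries held 4 counts each. It was 13.3-fold lower in CT2A (log2 fold change −3.74 ± 1.11, adjusted p = 0.0162) and 262-fold lower in Mut3 (log2 fold change −8.03 ± 1.39, adjusted p = 0.000833) by edgeR, a fold that depends on those few counts. Scaled to the panel, Grin2b was the only member called lower in Mut3, by 5.23-fold (log2 −2.39 ± 1.03, adjusted p = 0.0291). Its share of NMDA TPM was 58.3% to 79.7% in naïve brain and 9.49% to 14.7% in Mut3. Grin2a and Grin2c, the subunits that rise as the brain matures, were called lower in CT2A and Mut3, and Grin2c also in GL261. Grin3a had 1.27, 1.53 and 0.881 TPM in naïve brain, 0.200, 0.0146 and 0.0353 in CT2A, 0.156, 0.184 and 0.223 in GL261, 0.0790, 0.0393 and 1.12 in 005 and 0.119, 0.0540 and 0.827 in Mut3. With all libraries Grin3a, a glycine-binding subunit, was called in CT2A alone by edgeR (log2 −2.98 ± 1.11, adjusted p = 0.0434). Without the third 005 library, Grin3a was also lower in 005 by edgeR (log2 −3.52 ± 1.08, adjusted p = 0.0192). By TPM the third Mut3 library (319 counts) approached naïve brain. By CPM with TMM scaling that library (28.1 CPM) lay above the naïve range of 20.6 to 25.9 CPM. Scaled to the panel, Grin3a was 24.6-fold higher in Mut3 by edgeR (log2 4.62 ± 1.10, adjusted p = 0.000196). It made up 13.7% to 65.5% of the NMDA class there, against 1.87% to 3.08% in naïve brain. Grin2d and Grin3b had at most 2 counts in any library.

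**Figure D3:**
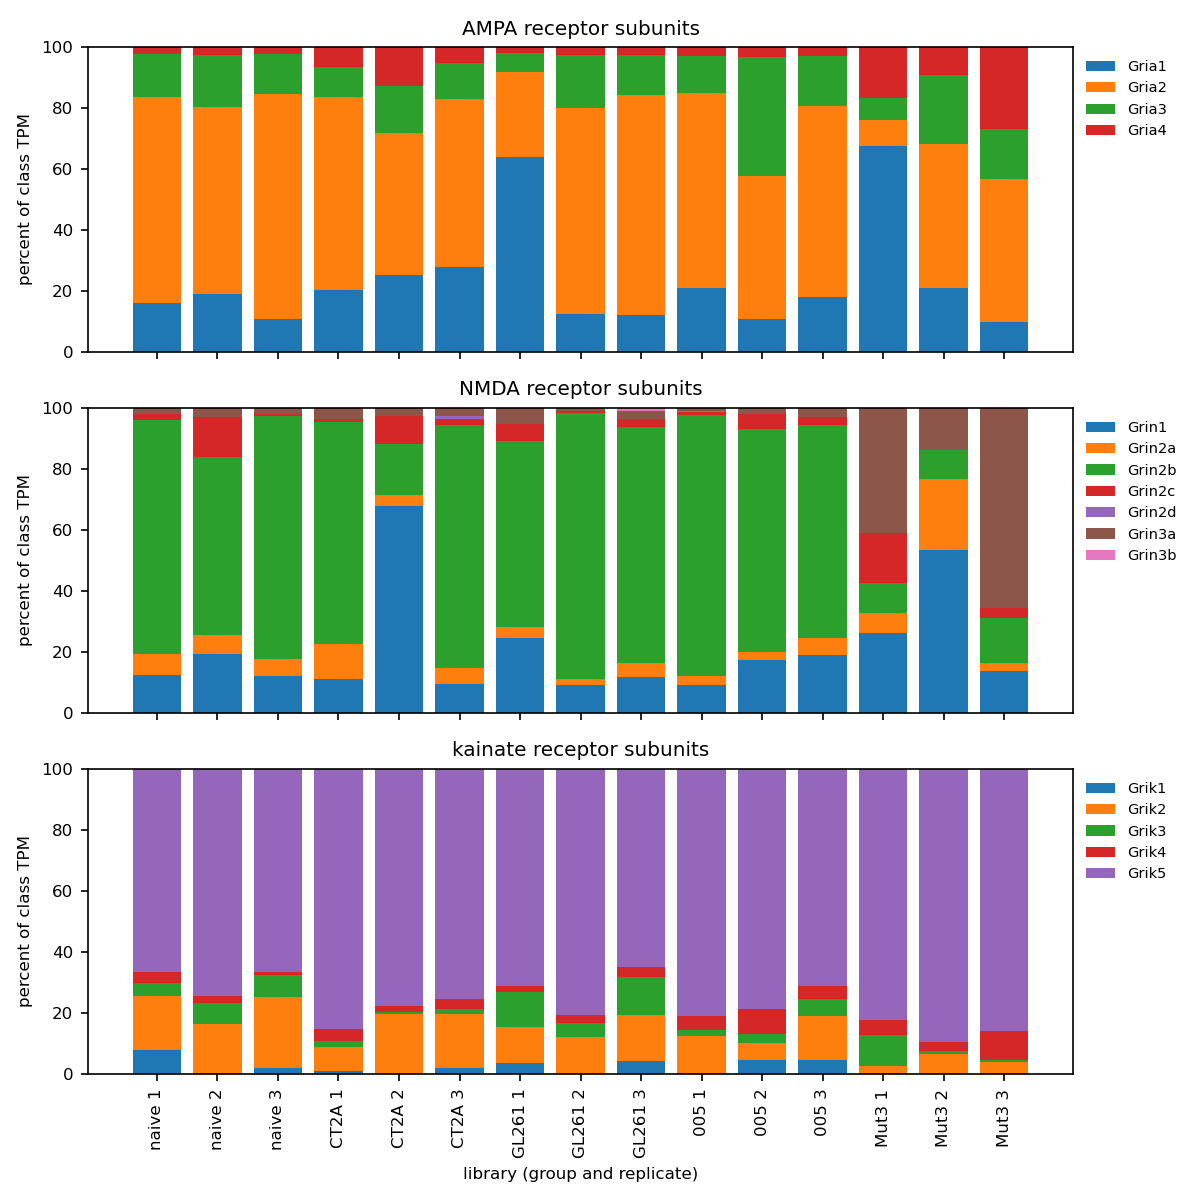
Stacked bars of each subunit's percentage of the summed TPM of its class in each of the 15 libraries, for AMPA, NMDA and kainate receptors. Gria1 leads the AMPA bars of the first GL261 and the first Mut3 libraries, Grin3a leads the NMDA bars of the first and the third Mut3 libraries, and Grik5 leads every kainate bar.

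Kainate receptors act before and after the synapse, and their Grik4 and Grik5 subunits bind kainate with high affinity but need Grik1, Grik2 or Grik3 to form channels. Its ratio to the neuronal panel in Mut3 departed from that of naïve brain further than in any class other than rho, which held few counts. The kainate sum was 7.35, 13.2 and 4.68 TPM in naïve brain, 2.54, 1.54 and 1.51 in CT2A, 0.839, 2.54 and 2.11 in GL261, 1.86, 0.928 and 6.00 in 005 and 2.02, 3.38 and 2.19 in Mut3. As a percentage of the panel sum it was 0.297% to 0.905% in naïve brain, 0.610% to 1.09% in GL261, 0.574% to 2.11% in 005, 1.22% to 3.44% in CT2A and 10.2% to 23.0% in Mut3. The CT2A and Mut3 ranges lay above that of naïve brain. In 005, 2 libraries (1.73% and 2.11%) also lay above it, and the third library (0.574%) lay within it, while GL261 overlapped it. Grik5 stood at 4.90, 9.82 and 3.12 TPM in naïve brain, 2.17, 1.20 and 1.14 in CT2A, 0.597, 2.05 and 1.37 in GL261, 1.503, 0.730 and 4.27 in 005 and 1.67, 3.03 and 1.88 in Mut3. With all libraries, Grik5 was not called in any tumor by edgeR. Its log2 fold change was lowest at −1.28 ± 0.51 (SE) in GL261 (adjusted p = 0.0768). It was highest at −0.51 ± 0.49 in Mut3 (adjusted p = 0.424). By TPM the second Mut3 library (3.03 TPM) came close to the lowest naïve library (3.12 TPM). By CPM with TMM scaling that Mut3 library (11.4 CPM) lay within the naïve range of 8.38 to 16.2 CPM. Without the third 005 library, Grik5 was called lower in 005 (log2 −1.48 ± 0.52, adjusted p = 0.0372). Grik4 measured 0.259, 0.330 and 0.0399 TPM in naïve brain, 0.1004, 0.0302 and 0.0524 in CT2A, 0.0164, 0.0640 and 0.0713 in GL261, 0.0831, 0.0780 and 0.252 in 005 and 0.0942, 0.0983 and 0.206 in Mut3. Grik4 was low throughout, with between 2 and 52 counts a library, and it was called in no tumor either, while its sign in 005 and in Mut3 changed with the library left out. Scaled to the panel, Grik5 was 38.6-fold higher in Mut3 (log2 5.27 ± 1.11, adjusted p = 5.18e-05) and 7.25-fold higher in CT2A (log2 2.86 ± 1.00, adjusted p = 0.0105), and Grik4 was 64.2-fold, 7.15-fold and 7.68-fold higher in Mut3, CT2A and 005 (adjusted p = 5.36e-05, 0.0226 and 0.0196 by edgeR). With all libraries, Grik2 was lower in Mut3 (log2 −2.87) and was not called elsewhere. Without the third 005 library, Grik2 was also lower in 005 (log2 −2.59 ± 0.72, adjusted p = 0.0122). On the panel scale it was higher in CT2A and Mut3 by 2.66 and 2.68. Grik3 was lower in CT2A (log2 −3.21), and its Mut3 excess on the panel scale (4.88) was seen with 57 counts in the first library against 7 and 5 in the others. Grik5 led the class in all 12 tumor libraries, with 64.9% to 89.6% of its TPM.

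The promoters of the most abundant AMPA gene and the leading kainate gene are shown for comparison, as the 250 bases before the RefSeq transcription start (build GRCm38.p6, gene strand). Windows of 250 bases before to 50 after the start were given for 32 of the 47 members. Of their 39 windows, 1 held a match to RE1, the element bound by REST, a repressor of neuronal genes. RE1 was searched on both strands as TTCAGCACC, any 2 bases and GGACAGCGC, with up to 2 mismatches in 18 letters. Gria2 lies at chr3:80681450-80802835 on the minus strand, and the match (capitals, on the opposite strand) lies at chr3:80802989-80803008, within 154 to 173 bases before the start. Such a match was present in 0.0365% of the 32851 windows of all genes, and the other member windows had at least 5 mismatches. Grik5 lies at chr7:25009849-25072346 on the minus strand and had no match in its window.
Gria2, chr3:80802836-80803085: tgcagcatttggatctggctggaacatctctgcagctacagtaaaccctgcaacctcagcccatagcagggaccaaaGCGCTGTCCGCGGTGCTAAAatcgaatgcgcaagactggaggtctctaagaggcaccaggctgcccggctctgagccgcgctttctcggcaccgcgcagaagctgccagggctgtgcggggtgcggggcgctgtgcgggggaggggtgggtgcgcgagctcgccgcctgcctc
Grik5, chr7:25072370-25072619: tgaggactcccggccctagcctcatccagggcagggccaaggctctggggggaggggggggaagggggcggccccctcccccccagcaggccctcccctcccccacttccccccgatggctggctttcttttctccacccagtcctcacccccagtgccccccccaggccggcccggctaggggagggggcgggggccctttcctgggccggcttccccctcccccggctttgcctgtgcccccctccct

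Delta receptors bind cerebellins and organise synapses. Grid1 was at 2.81, 3.88 and 3.29 TPM in naïve brain, 0.400, 0.440 and 0.278 in CT2A, 0.0783, 0.630 and 0.341 in GL261, 0.136, 0.247 and 1.61 in 005 and 0.346, 0.232 and 0.427 in Mut3. Grid1 was lower in CT2A, GL261 and Mut3 (log2 fold change −2.19 ± 0.68, adjusted p = 0.0201; log2 fold change −2.48 ± 0.70, adjusted p = 0.0216; and log2 fold change −2.50 ± 0.69, adjusted p = 0.0106), with no tumor overlapping naïve brain. On the panel scale, Grid1 was 11.5-fold higher in Mut3 (log2 3.52 ± 1.10, adjusted p = 0.0031).

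The markers of oligodendrocyte precursors did not fall in Mut3 as the neuronal panel did. The 5 markers (Pdgfra, Cspg4, Olig1, Olig2 and Sox10) summed to 9.04, 34.5 and 7.79 TPM in naïve brain, 5.17, 3.25 and 3.72 in CT2A, 24.4, 23.8 and 34.3 in GL261, 3.81, 5.41 and 20.8 in 005 and 69.8, 36.7 and 79.0 in Mut3, and 3 of the 5 (Cspg4, Olig1 and Olig2) were called higher in Mut3. In CT2A 2 were higher and 3 lower, in GL261 2 were higher, and in 005 none was called. Astrocyte markers (6 genes) summed to 947, 793 and 814 TPM in naïve brain, 147, 48.6 and 50.3 in CT2A, 215, 409.8 and 203 in GL261, 112, 52.3 and 756 in 005 and 333, 382 and 107 in Mut3. The part of these cells, or of the tumor cells themselves, in the levels of Gria4, Grin3a, Grik4, Grik5 and Grid1 was not tested.

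All 7 tested mGlu genes were lower in Mut3 and 5 of them in CT2A. Grm5 had 13.3, 14.2 and 8.77 TPM in naïve brain, 1.03, 0.0706 and 0.154 in CT2A, 1.70, 3.16 and 1.52 in GL261, 0.287, 0.167 and 7.71 in 005 and 0.165, 0.111 and 0.408 in Mut3. Grm5, the main group I receptor here, was lower in CT2A (log2 fold change −3.98 ± 1.14, adjusted p = 0.0135) and in Mut3 (log2 fold change −4.87 ± 1.19, adjusted p = 0.00548). No tumor library reached the lowest naïve level of Grm5. Grm3 stood at 2.24, 3.61 and 2.32 TPM in naïve brain, 0.257, 0.0177 and 0.0714 in CT2A, 0.197, 0.804 and 0.392 in GL261, 0.159, 0.0559 and 2.42 in 005 and 0.1003, 0.0352 and 0.0561 in Mut3. Grm3, the group II receptor of glia and neurons, and Grm2, its presynaptic partner in the group, were lower in CT2A (log2 −3.66 and −4.79) and in Mut3 (log2 −4.54 and −5.25), and Grm2 also in GL261 (log2 −2.93). Grm7 measured 4.07, 4.27 and 3.08 TPM in naïve brain, 0.539, 0.538 and 0.0544 in CT2A, 0.125, 0.289 and 1.68 in GL261, 0.0726, 0.0703 and 2.29 in 005 and 0, 0.135 and 0.0486 in Mut3. With all libraries Grm7, a presynaptic group III receptor, was called in Mut3 alone (log2 fold change −5.16 ± 1.38, adjusted p = 0.00906). In GL261 its level was carried by the third library. Without the third 005 library, Grm7 was lower in 005 as well (log2 −4.88 ± 1.22, adjusted p = 0.00645). Grm8 was at 1.26, 0.776 and 0.757 TPM in naïve brain, 0.147, 0.0141 and 0.00594 in CT2A, 0.160, 0.288 and 0.373 in GL261, 0.131, 0.0891 and 0.772 in 005 and 0.0184, 0.0174 and 0.00682 in Mut3. Grm8, also of group III, had between 1 and 3 counts in each Mut3 library, and it was lower in CT2A and Mut3 (log2 −3.24 and −5.33). Grm4 was called lower in the same 2 tumors, and Grm6, the receptor of retinal bipolar cells, had at most 1 count in a library. No mGlu gene was called on the panel scale in any tumor, although Grm3 was at log2 1.65 ± 1.06 in Mut3.

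GABA-A alpha subunits set much of the pharmacology of the receptor, and 5 of the 6 were tested. Gabra4 had 7.86, 8.76 and 7.91 TPM in naïve brain, 0.944, 0.152 and 0.267 in CT2A, 0.639, 2.14 and 1.29 in GL261, 0.338, 0.247 and 6.89 in 005 and 0.0407, 0.133 and 0.0691 in Mut3. Gabra4, often found outside synapses with the delta subunit, was lower in CT2A (log2 −3.30) and Mut3 (log2 −5.87). Gabra4 (chr5:71569749-71658308, minus strand) and Gabrb1 (chr5:71658113-72149037, plus strand) overlap at their starts in mm10, so reads from the shared bases may be counted for either. Gabra2, Gabra3 and Gabra5 were lower in CT2A and Mut3 as well, and Gabra2 and Gabra5 also in GL261 (log2 −2.398 and −2.77). Gabra6, the alpha subunit of cerebellar granule cells, had at most 3 counts in any library, naïve brain included. As a percentage of the panel sum the alpha class was 1.97% to 2.67% in naïve brain, 2.13% to 3.66% in Mut3, 1.61% to 2.14% in CT2A, 1.95% to 2.47% in GL261 and 1.87% to 2.56% in 005. These ranges overlap between naïve brain and each tumor.

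Beta subunits form the GABA site together with alpha subunits. Gabrb1 stood at 1.96, 2.24 and 1.44 TPM in naïve brain, 0.207, 0.0338 and 0.0621 in CT2A, 0.150, 0.443 and 0.305 in GL261, 0.148, 0.0552 and 1.43 in 005 and 0.0184, 0.0449 and 0.0367 in Mut3. Gabrb1 was lower in CT2A (log2 −3.31) and Mut3 (log2 −4.98), and Gabrb2 in CT2A (log2 −3.62), Mut3 (log2 −5.41) and GL261 (log2 −3.16). Gamma subunits anchor the receptor at synapses. Gabrg1 measured 2.04, 1.21 and 1.58 TPM in naïve brain, 0.242, 0.0831 and 0.0602 in CT2A, 0.135, 0.587 and 0.411 in GL261, 0.125, 0.0396 and 1.14 in 005 and 0.0135, 0.0338 and 0.0337 in Mut3. Gabrg1 (log2 −2.80 and −5.12) and Gabrg3 (log2 −3.54 and −4.45) were lower in CT2A and Mut3 as well.

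The remaining GABA-A genes were low or uneven. Gabrd was at 4.05, 23.4 and 7.40 TPM in naïve brain, 0.667, 0.0213 and 0.0546 in CT2A, 0.218, 2.17 and 1.99 in GL261, 0.258, 0.133 and 8.95 in 005 and 0.0399, 0.0687 and 0.0754 in Mut3. Gabrd, the delta subunit of extrasynaptic receptors, varied widely within naïve brain and was highest in the second library, which was also high in striatal and oligodendrocyte markers. It was lower in CT2A (log2 fold change −4.52 ± 1.32, adjusted p = 0.0148) and Mut3 (log2 fold change −6.46 ± 1.49, adjusted p = 0.00397). Gabrr2 had 0, 0 and 0.302 TPM in naïve brain, 0.0595, 0.0401 and 0.0513 in CT2A, 0.227, 0.190 and 0 in GL261, 0, 0 and 0.0762 in 005 and 0.108, 0.0412 and 0.0260 in Mut3. Gabrr2, the rho subunit with the highest naïve mean, had at most 8 counts in a library and was not tested. Gabrp had 0 counts in all 15 libraries, where a count of 0 allows up to 3 counts, or 0.228 to 0.966 CPM. Gabre, Gabrq, Gabrr1 and Gabrr3 stayed at 16 counts or fewer and were not tested with all libraries.

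GABA-B receptors pair Gabbr1, which binds GABA, with Gabbr2, which couples to the G protein. Gabbr1 stood at 21.1, 53.0 and 15.2 TPM in naïve brain, 3.09, 0.568 and 0.694 in CT2A, 2.32, 5.98 and 5.38 in GL261, 1.97, 1.11 and 22.9 in 005 and 0.575, 0.866 and 0.687 in Mut3. The second naïve library was highest, and the third 005 library lay within the naïve range. Gabbr1 was lower in CT2A (log2 fold change −3.35 ± 0.83, adjusted p = 0.00667) and Mut3 (log2 fold change −4.45 ± 0.87, adjusted p = 0.00158), and Gabbr2 was lower in both (log2 −3.32 and −4.32). Gabbr1 held 71.6% to 76.7% of the class in naïve brain and 65.0% to 86.7% in the tumors. Over the 12 classes with enough counts in naïve brain, the leading naïve subunit also led in 104 of the 116 tumor class and library pairs with at least 30 counts.

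**Figure D4:**
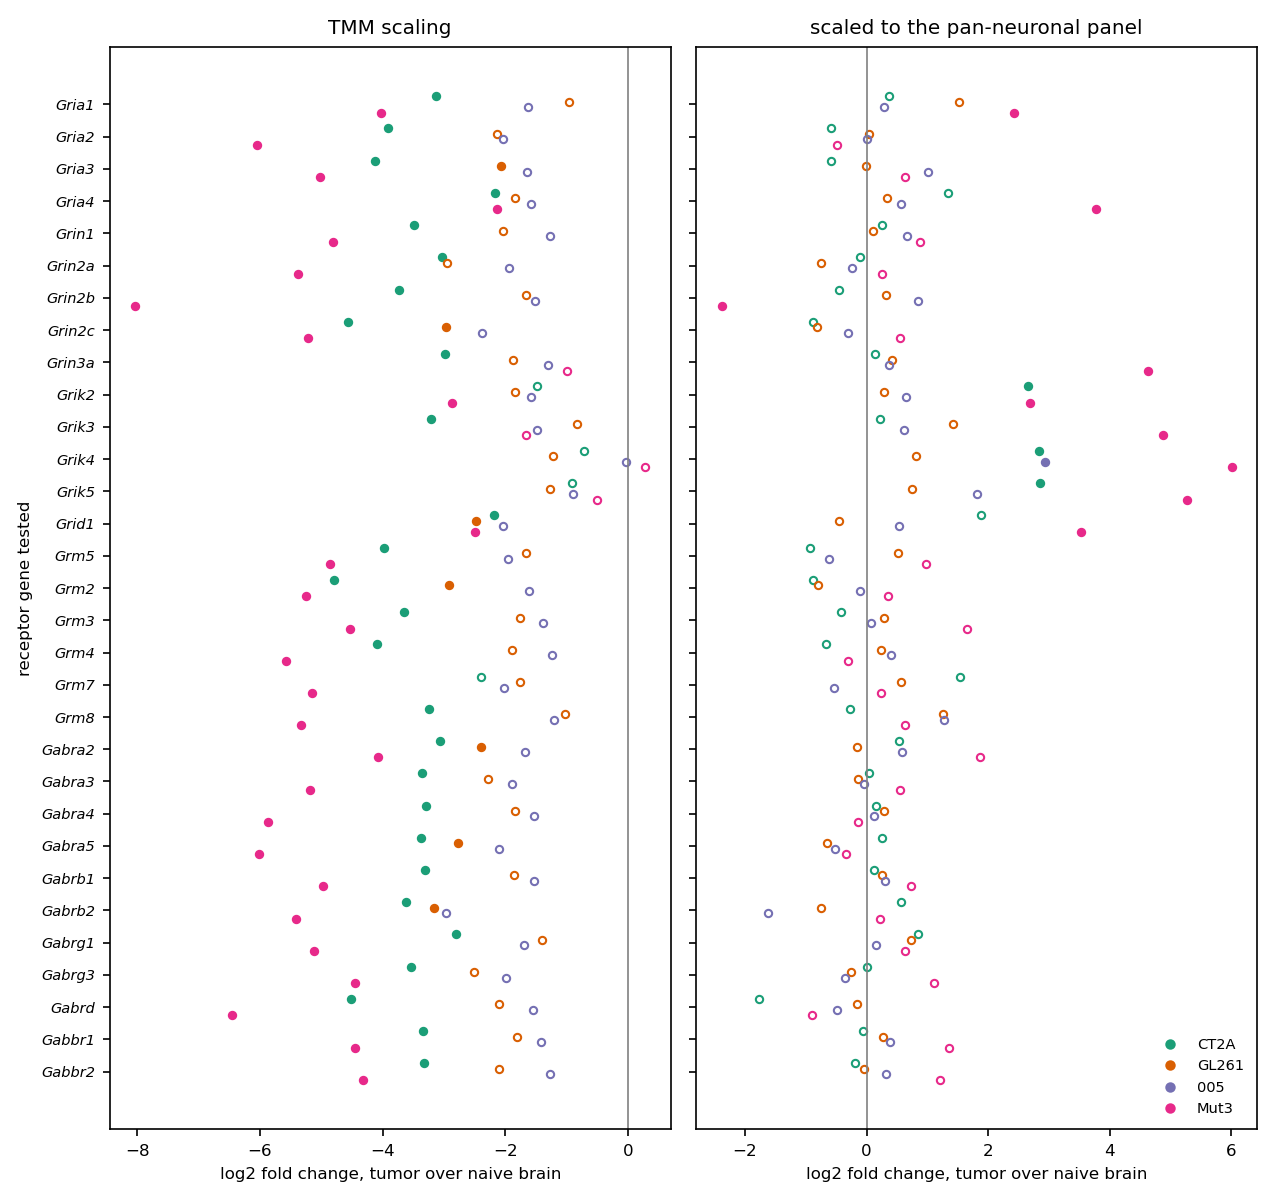
Log2 fold change of 31 tested receptor genes in each tumor over naïve brain, with TMM scaling (left) and scaled to the pan-neuronal panel (right). Filled points were called and open points were not. On the left nearly all points lie below 0, and on the right they gather around 0 with most kainate genes of CT2A and Mut3, and Gria1, Gria4, Grin3a and Grid1 of Mut3, above it and Grin2b of Mut3 below it.

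Without the third 005 library, the fall in 005 reached most members. Gria2 was then lower in 005 than in naïve brain (log2 −3.58 ± 0.91, adjusted p = 0.00711 by edgeR). Grid1 (log2 −3.40 ± 0.65, adjusted p = 0.00124), Grm5 (log2 −4.92 ± 0.94, adjusted p = 0.00125) and Gabbr1 (log2 −3.35 ± 0.64, adjusted p = 0.00125) were lower as well. The members not called were Grin2b (log2 −2.45 ± 1.14, adjusted p = 0.105), Grik4 (log2 −0.49 ± 0.77, adjusted p = 0.651) and Gabrq (log2 −3.90 ± 2.05, adjusted p = 0.15), which carries few counts.

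Pairs of tumors were compared next, to ask whether the lines differ in these genes. Mut3 had less of them than the lines GL261 and 005. In GL261 18 members were higher than in Mut3, where 11.1% of all genes were called higher, and in 005 23 members were higher, where 14% of all genes were. In CT2A 1 member, Grin2b, was higher than in Mut3 (log2 fold change 4.30 ± 1.20, adjusted p = 0.029), where 6.61% of all genes were higher, and the call was lost without the first or the third CT2A library (log2 3.06 and 4.45) or the first or second Mut3 library (log2 3.97 and 3.94). No member was called between CT2A and GL261, CT2A and 005 or GL261 and 005, where 7.77%, 4.11% and 2.62% of all genes were called in either direction. At an unadjusted p below 0.05 there were 5, 13 and 0, and DESeq2 called 1, 3 and 0. The shares of all genes for these further counts are not given here. For the averages of GL261 and 005 against CT2A and Mut3, 23 members were higher and none lower, where 12.6% of all genes were higher. The panel genes moved alike, with 8 of 8 higher in GL261 than in Mut3, 8 in 005 than in Mut3, 2 in CT2A than in Mut3, and 8 in the averages of GL261 and 005. These comparisons share libraries, so their counts are not independent. Without the third 005 library, 6 of 37 members and 3 of 8 panel genes were higher in 005 than in Mut3, where 9.63% of all genes were higher, and 14 members were higher in the averages, where 8.73% of all genes were. Without the first Mut3 library, 4 members were higher in GL261 and 8 in 005 than in Mut3 of 38 tested, where 4.81% and 6.43% of all genes were higher.

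The smallest p-values over pairs belonged mostly to the comparison of 005 and Mut3. Grin2b differed most (log2 fold change 6.52 ± 1.31, adjusted p = 0.00483), and its Mut3 libraries lay below those of 005 and GL261. Among AMPA and NMDA genes, Gria3 (log2 fold change 3.37 ± 0.71, adjusted p = 0.00623), Grin1 (log2 fold change 3.54 ± 0.80, adjusted p = 0.00882) and Gria2 (log2 fold change 3.99 ± 0.96, adjusted p = 0.0117) were also higher in 005, with no overlap of the 2 groups. Among GABA-A genes, Gabra4 (log2 fold change 4.34 ± 1.00, adjusted p = 0.00982) and Gabrb1 (log2 fold change 3.45 ± 0.85, adjusted p = 0.0128) were higher in 005, with no overlap. Grm8 (log2 fold change 4.30 ± 0.99, adjusted p = 0.0105) and Gabrg1 (log2 fold change 3.72 ± 0.91, adjusted p = 0.0143) were higher in GL261 than in Mut3, with no overlap. The call of Gabrg1 was lost without the first Mut3 library (log2 3.52). The calls of Gabra4 (log2 1.85 ± 0.62, adjusted p = 0.0534) and Gabrb1 (log2 1.61 ± 0.60, adjusted p = 0.0821) between 005 and Mut3 were lost without the third 005 library, and that of Gabrb1 was also lost without the first Mut3 library (log2 3.17). Grin2b (log2 5.57), Gria2 (log2 2.46), Gria3 (log2 2.12) and Grin1 (log2 1.83) stayed called without that 005 library, at smaller differences. Grik4 and Grik5 were not called in any pair.

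Genes that act with the receptors were followed in 4 further lists. With all libraries, 19.8% of all genes were lower in Mut3, 20.2% in CT2A, 7.77% in GL261 and 1.05% in 005. Single calls in GL261 and the absence of calls in 005 are given as values only. Of 23 auxiliary subunits, which traffic and tune the receptors, 21 were tested, and 18 were lower in Mut3, 15 in CT2A, 4 in GL261 and none in 005. Cacng2, the stargazin subunit of AMPA receptors, was lower in CT2A (log2 −3.35) and Mut3 (log2 −5.21). Cacng4, another AMPA subunit, was 0.42 ± 0.77 in Mut3 on the log2 scale (adjusted p = 0.688), and Lhfpl4, which clusters GABA-A receptors, was 0.01 in Mut3 and −0.03 in CT2A, with no call in either. Neto1, an auxiliary subunit of kainate receptors, was lower in CT2A (log2 −4.27) and Mut3 (log2 −4.58), and was 1.53 ± 0.72 in GL261 without a call (adjusted p = 0.128). Of 12 transporters, 11 were tested, with 9 lower in CT2A, 8 in Mut3 and none in GL261 or 005. Slc1a2, the main glutamate transporter of astrocytes, was lower in CT2A and Mut3 (log2 −2.92 and −4.39), whereas Slc1a3, its glial relative, was called in CT2A (−2.41) and not in Mut3 (−0.62, adjusted p = 0.376). Of 8 enzymes, 6 were lower in Mut3, 5 in CT2A, 1 in GL261 and none in 005, and Gad1, which makes GABA, was lower in CT2A (log2 −2.94) and Mut3 (log2 −5.26). Of 5 glycine receptor genes, 3 were tested, and all 3 were lower in CT2A and Mut3 and 1 in GL261. Without the third 005 library, 15 auxiliary subunits, 10 transporters, 4 enzymes and 2 glycine receptor genes were lower in 005. In that fit 18.1% of all genes were lower.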

How the data were processed

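Expression was measured by bulk RNA sequencing in 15 libraries, 3 mice in each of 5 groups, grouped by the labels. The deposited estimated counts, one value per gene and library, were made by the authors from reads aligned to the mouse genome (mm10), and the TPM values deposited beside them are the authors' length-scaled levels. The methods name STAR 2.4.2a, Picard and RNA-SeQC, the submitters' processing notes also list Salmon and DESeq2 1.18.1 without a role, and the annotation release is not given in the sources used here. Gene positions are those of GENCODE M21.

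Estimated counts were rounded and tested with edgeR 4.0.16 (R 4.3.3; quasi-likelihood, TMM, default filter on low counts, all 15 libraries in one fit, 17481 genes). Genes were called at a Benjamini-Hochberg adjusted p below 0.05 over all tested genes and a log2 fold change of at least 1 in size, and the SE is the fold change divided by the square root of F. No 2 libraries were duplicates, with a chi-square of at least 14.1 per gene between replicates. A count of 0 allows 3 counts, and floors cover counting error only. The study reports 3 mice per group, and each library was taken as a separate mouse, so p-values measure the spread between libraries. The test was checked on simulated data. Alternatives were DESeq2 1.42.0, limma 3.58.1 on log2(TPM + 1), other filters and scalings, a replicate block, fits of only the libraries compared, and leaving out each library. Scaling to the pan-neuronal panel and tables without the third 005 library were added after seeing the data.

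The members and lists were chosen with earlier results of these data known. Values in every library were set for the gene with the highest naïve mean TPM in each class, genes called higher in a tumor than in naïve brain, and the 10 with the smallest p over pairs of tumors. Gria1, Gria4, Grin3a, Grik4 and the genes of the auxiliary, transporter and enzyme lists were named after their values were seen. Shares within a class were taken where it held at least 30 counts. A few members enter the fits, counts and class sums but are not reported by name here.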

Additional observations from a re-analysis of the deposited data

Results flagged for a closer look

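The difference between tumor models was tested directly, and Mut3 was the lower model in each result listed here. Of 36 tested receptor genes, 1 was called between CT2A and Mut3, 18 between GL261 and Mut3, and 23 between 005 and Mut3. Among all genes, 6.61%, 11.1% and 14% were lower in Mut3 in the same order. The single CT2A call was fewer than that share and is given as a value only. The log2 difference of 005 over Mut3 was 6.52 for Grin2b, 3.37 for Gria3, 3.54 for Grin1, 4.34 for Gabra4, 3.99 for Gria2 and 3.45 for Gabrb1. Without the third 005 library these were 5.57, 2.12, 1.83, 1.85, 2.46 and 1.61 in the same order, and Gabra4 and Gabrb1 were no longer called. The number of receptor genes called between 005 and Mut3 was then 6 of 37, where 9.63% of all genes were higher in 005. The log2 difference of GL261 over Mut3 was 4.30 for Grm8 and 3.72 for Gabrg1. The 8 pan-neuronal markers were also higher in GL261 and in 005 than in Mut3, and their part in these differences was not tested.

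Among genes too low to test, Gabre reached 16 counts in the second CT2A library, where naïve brain had at most 1. Gabrr1 reached 9 counts in the second Mut3 library and 8 in the first, where naïve brain had 0.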

How the results depend on the processing

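The direction of the members' counts did not depend on the setting except on the panel scale, where the calls were 9 in Mut3, 4 in CT2A, 0 in GL261 and 1 in 005. Of 2732 comparisons of single genes with the reported fit, 2211 kept their direction and side of the threshold, 374 lost and 139 gained a call, and 8 changed sign. Of 186 counts, 122 stayed within 1.5 times.

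DESeq2 called 20 members in GL261 and 7 in 005, and 1 between CT2A and GL261, 3 between CT2A and 005 and 6 between CT2A and Mut3. Without a filter these were 16, 1, 1, 2 and 4. With at least 10 counts in every library, which left 15 members, calls were 14 in CT2A, 4 in GL261 and 14 in Mut3, 1 between CT2A and 005, 0 between CT2A and Mut3, 9 between GL261 and Mut3, 11 between 005 and Mut3 and 12 for the averages of GL261 and 005 against CT2A and Mut3, and 14 differed among the 5 groups. limma on log2(TPM + 1) gave 27 in GL261, 24 in 005, 0 between CT2A and Mut3, 1 between GL261 and Mut3, 1 between 005 and Mut3 and 3 for the averages. Fits of only the libraries compared gave 27 in GL261, 2 between CT2A and GL261, 6 between CT2A and Mut3 and 3 between 005 and Mut3. The cause of these changes was not tested, and the shares of all genes called under these settings are not given here.

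With 1 library left out, calls ranged from 12 to 29 in CT2A, 0 to 3 in GL261, 0 to 34 in 005, 0 to 1 between CT2A and GL261, 0 to 3 between CT2A and 005, 0 to 1 between CT2A and Mut3, 0 to 1 between GL261 and 005, 4 to 15 between GL261 and Mut3, 6 to 28 between 005 and Mut3, and 14 to 27 for the averages. The single call between GL261 and 005 was Grm5, without the third 005 library. Shares of all genes are given above only for some fits without the third 005 or the first Mut3 library. Replicate numbers did not pair the libraries, since same-numbered libraries correlated at −0.33 to 0.26. With the replicate block, 0 were called between CT2A and Mut3 and 15 between 005 and Mut3.

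Grik4 changed sign. In 005 its log2 fold change was 0.025 with only the libraries compared and −0.49 to 0.32 with 1 library left out, with positive values without naïve replicate 1 or 2 or 005 replicate 1 or 2. In Mut3 it was −0.0883 on log2(TPM + 1) and −0.21 to 0.72 with 1 library left out, with negative values without naïve replicate 3 or Mut3 replicate 3. The median of all genes in CT2A was −0.24 with library size scaling and −0.04 with TMM. Few counts in Mut3 limit the folds of Grin2b, Grm8 and Gabrd there.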
